A study of Mus musculus with 6 samples.

Results

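The 29 sterol and fatty acid synthesis genes followed here were chosen as a list of names by pathway role. No threshold on their values was used, though the list was drawn up with earlier results of these data known. They carry most steps of cholesterol synthesis, the core steps of fatty acid synthesis and the switch that controls both. All 29 were among the 18822 genes with values in the files, and all 29 had the mean of at least 1 FPKM needed to enter the comparison of 12388 genes. FPKM, the deposited unit, divides a gene's fragments by its transcript length and by how many fragments were mapped, so levels can be set side by side between genes. The libraries came from kidney glomeruli of C57BL/6J mice. Both genotypes had diabetic kidney disease, and no mice without it were among the 6 libraries. One group of 3 libraries came from PR3 knockout mice and is called PR3_KO. PR3 is proteinase 3, a protease that neutrophils store in granules, and its gene is Prtn3. The other group of 3 libraries was wild type and is called WT. The labels give no age, no sex, no way in which diabetes was induced and no statement that each library came from its own animal, so a p-value here speaks only of how far these 6 samples spread, and that spread may be technical. No label says how the glomeruli were isolated or whether the knockout was limited to a cell type.

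As background, cholesterol is built from acetyl-CoA through mevalonate, farnesyl diphosphate, squalene and lanosterol, and fatty acids are built from the same acetyl-CoA through malonyl-CoA. Most of the enzymes are transcribed under the sterol regulatory element binding proteins, which are encoded by Srebf1 and Srebf2. These are membrane proteins that the escort protein Scap carries to the Golgi when sterols are low, where they are cut and released to the nucleus, and that Insig proteins hold back when sterols are plentiful. In the kidney the pathway has been studied in podocytes, the epithelial cells around the glomerular capillaries, because cholesterol accumulates in them in diabetic kidney disease.

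The promoters are described first, and their part in the member values was not tested. RefSeq promoter windows of GRCm38.p6, from 250 bases before to 50 bases after a gene's start, were found for 23 of the 29 genes. Sqle, Fdft1, Fdps, Scd1, Scd2 and Stard4 had no window and were not searched. Both strands were searched for 4 motifs, none of which contains another: the sterol regulatory element core TCACNCCAC, the NF-Y box CCAAT, the E-box CACGTG and the GC box GGGCGG. The NF-Y box was found in the windows of 19 of the 23 genes (82.6%, against 41.1% of 27025 genes) and the GC box also in 19 (82.6%, against 38.2%). The E-box was found in 5 (21.7%, against 8.09%), and the sterol regulatory element core in 1 (4.35%, against 1.44%), which was Hmgcs1. The 27025 genes were all genes with a window, whether or not they had values here, so they are a set unlike the members. A match is a description of letters and not a binding site. The stretches below end at the base before the start and are given 5′ to 3′ on the gene's strand, with a match to any of the motifs on either strand in capitals. Hmgcs1 (chr13:119690201-119690350, plus strand) is shown for its sterol regulatory element core. Pmvk (chr3:89454391-89454540, plus strand, the first of its 2 annotated starts) is shown as the member with the largest fall. Mvd (chr8:122443423-122443572, minus strand), Nsdhl (chrX:72918421-72918520, plus strand) and Ebp (chrX:8193513-8193662, minus strand) are shown as members that were higher in PR3_KO. Of these, Mvd did not pass limma as deposited (adjusted p = 0.0583).
Hmgcs1: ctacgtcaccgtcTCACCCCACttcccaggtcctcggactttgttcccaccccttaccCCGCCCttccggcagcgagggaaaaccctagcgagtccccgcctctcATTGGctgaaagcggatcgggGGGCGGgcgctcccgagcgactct
Pmvk: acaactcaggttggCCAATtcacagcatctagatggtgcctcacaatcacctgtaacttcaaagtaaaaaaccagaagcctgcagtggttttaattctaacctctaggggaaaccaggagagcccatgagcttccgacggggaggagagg
Mvd: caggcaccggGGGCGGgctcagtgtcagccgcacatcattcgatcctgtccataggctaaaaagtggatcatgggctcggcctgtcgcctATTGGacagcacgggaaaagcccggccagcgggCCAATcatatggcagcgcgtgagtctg
Nsdhl: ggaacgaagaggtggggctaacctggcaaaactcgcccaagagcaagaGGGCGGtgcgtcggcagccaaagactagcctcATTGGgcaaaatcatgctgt
Ebp: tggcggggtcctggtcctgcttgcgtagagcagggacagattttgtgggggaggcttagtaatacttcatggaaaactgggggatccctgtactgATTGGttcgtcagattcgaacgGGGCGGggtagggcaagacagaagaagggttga
In Hmgcs1 the core begins 137 bases before the start, with a CCAAT box in reverse 45 bases and GC boxes 92 and 24 bases before it. Within the stretches shown, Mvd has CCAAT boxes 60 and 27 bases before its start, Nsdhl has one 20 bases and Ebp one 55 bases before theirs. Each of these genes has a GC box. The Nsdhl stretch is 100 bases long and the others are 150. Further CCAAT boxes lie before the stretches, at 237 and 176 bases in Hmgcs1, 109 in Nsdhl and 170 in Ebp. Pmvk has CCAAT 136 bases before this start and no GGGCGG in the stretch.

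The libraries differed in ways that touch every count below. Summed FPKM was 566772 to 604697 in PR3_KO and 494316 to 543564 in WT, and 16473 to 16965 genes were above 0; read totals and counts were not used here, so depth is unknown. Over all tested genes the log2 fold change had a median of -0.26 as deposited. Median-of-ratios scaling, which divides each library by its median ratio to the geometric mean over libraries, moved this to 0.03. Values are therefore given as deposited, with the scaled value wherever it changes a call or a sign. Prtn3 itself had FPKM values of 0.14, 0 and 0.07 in the PR3_KO libraries 1, 2 and 3 against 0.46, 0.21 and 0.22 in the WT libraries, a weak check of the labels at such levels (exact permutation test, two-sided, p = 0.1; groups of 3 cannot go lower).

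Cell type markers also moved with genotype. The 15 proximal tubule markers summed to 53871.5 to 71954.0 FPKM in PR3_KO and 9884.1 to 26038.2 in WT (without Kap 12493.6 to 14364.0 against 4636.4 to 7528.9), and 13 of 15 rose. The 10 podocyte markers, which define the labelled tissue, were present in every library and summed to 405.1 to 637.8 FPKM against 729.2 to 1177.0, and the 10 endothelial markers to 818.5 to 1146.6 against 2239.1 to 2722.2. The 9 mesangial markers summed to 185.5 to 321.3 FPKM against 419.5 to 664.5, the 10 macrophage markers to 94.6 to 148.3 against 650.0 to 1372.6, and the 10 markers of the loop, distal tubule and collecting duct to 744.4 to 1141.9 against 1221.1 to 1538.4. The 8 adipocyte markers summed to 126.2 to 165.2 FPKM against 201.5 to 450.8, with Adipoq, Plin1, Cidec, Cfd, Retn and Adig at 0 in at least 1 library. Nearly all of that sum was Fabp4, at 120.53 to 152.97 FPKM against 199.68 to 444.99. Car3, the only other one tested, rose (log2 fold change 1.04, adjusted p = 0.0445), so the sum speaks for 1 gene. The 6 erythroid markers summed to 697.1 to 2797.2 FPKM against 1401.3 to 1742.2. After median-of-ratios scaling the podocyte sums overlapped (474.0 to 691.1 in PR3_KO against 666.5 to 984.1 in WT), and 2 of 10 podocyte markers fell where 5 had fallen as deposited. Mesangial markers that fell went from 5 to 3 of 9 and those of the loop, distal tubule and collecting duct from 5 to 2 of 10, with the sums of the latter, the adipocyte and the erythroid lists overlapping on that scale. The 10 endothelial and 10 macrophage markers fell on both scales, and the sums of these lists, the mesangial and the proximal tubule lists stayed apart on both. In bulk tissue, fewer cells of a type and less RNA per cell cannot be told apart, and the part of these markers in the member values was not tested. WT 2 had the lowest proximal tubule sum and the highest podocyte sum, and it held the highest value of 46.6% of all tested genes.

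**Figure D1:**
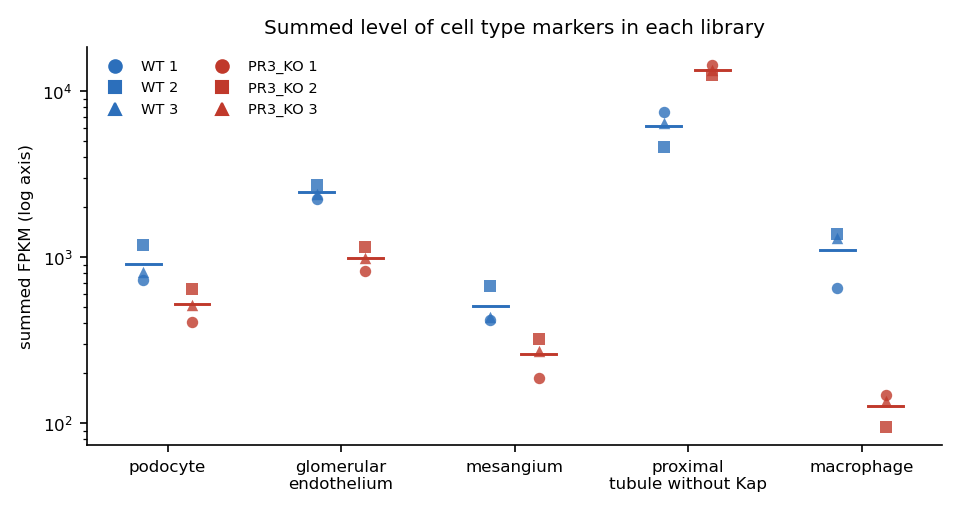
Summed FPKM of the podocyte, endothelial, mesangial, proximal tubule and macrophage marker lists in every library, on a log axis. The proximal tubule list is drawn without Kap, and the other lists are not drawn. PR3_KO is in red and WT in blue, with circles, squares and triangles for libraries 1, 2 and 3. A short line marks each group's mean. As deposited, the proximal tubule sums of PR3_KO lie above those of WT and the podocyte, endothelial, mesangial and macrophage sums lie below; after scaling the podocyte sums overlap.

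The 29 genes did not move as a block. As deposited, 3 rose (Nsdhl, Tm7sf2 and Ebp), 6 fell (Pmvk, Fdps, Fdft1, Msmo1, Dhcr7 and Scd2) and 20 did not pass limma's adjusted p of 0.05. That is 10.3% rising and 20.7% falling, beside 11.7% and 41.1% of all tested genes. Their median log2 fold change (PR3_KO minus WT, of log2(FPKM + 1), a scale that understates the change of low genes) was -0.05, with a range of -0.93 to 0.53, beside the -0.26 of all genes. All 3 PR3_KO libraries lay above all 3 WT libraries for 5 members and below them for 8, where the shares over all tested genes were 16.0% and 49.1%. The share of members that rose was near the background and the share that fell was below it.

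After median-of-ratios scaling 8 members rose and 1 fell, which is 27.6% and 3.45% beside 25.6% and 22.2% of the 12351 genes tested on that scale. The scaled median was 0.22 (range -0.63 to 0.85). Groups were fully apart for 12 members with PR3_KO above and 1 with PR3_KO below, against 33.4% and 28.6% of all genes. Only Nsdhl, Tm7sf2 and Ebp rose on both scales, and Pmvk was the one member that fell on both. Fdps, Fdft1, Msmo1, Dhcr7 and Scd2 fell as deposited only, and Acat2, Mvd, Hsd17b7, Scap and Fasn rose after scaling only. No member was called in opposite directions, and 9 members that were not called on either scale changed the sign of their fold change between them.

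**Figure D2:**
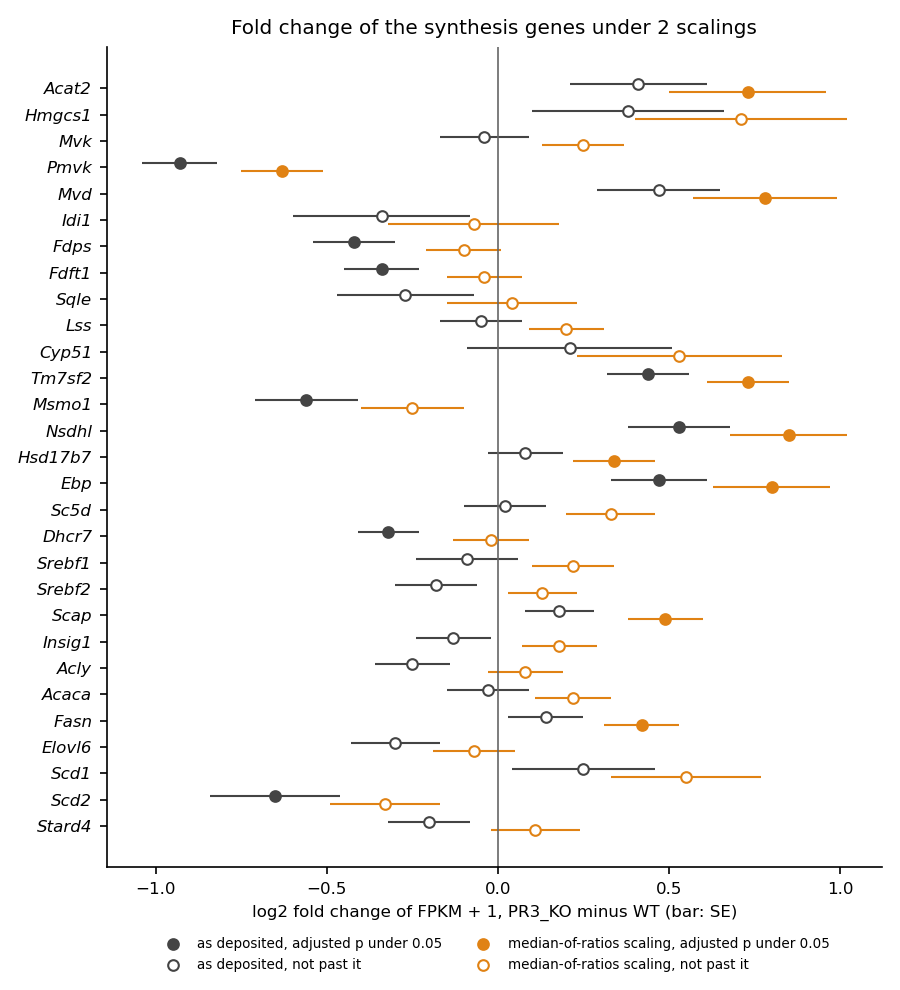
Log2 fold change of FPKM + 1 (PR3_KO minus WT, with its SE as a bar) of the 29 genes by role, on the deposited and the median-of-ratios scale; filled points passed limma's adjusted p of 0.05. Values run from -0.93 for Pmvk to 0.53 for Nsdhl as deposited and shift upward after scaling, where Pmvk remains the one gene called as falling.

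Of the 7 genes that lead from acetyl-CoA to farnesyl diphosphate, 2 fell (28.6%) and 0 rose as deposited, beside 41.1% and 11.7% of all tested genes. At an unadjusted limma p under 0.05, 1 was higher (Mvd), and the median log2 fold change was -0.04. After scaling 2 rose and 1 fell (28.6% and 14.3%, beside 25.6% and 22.2% of all genes). Pmvk, phosphomevalonate kinase, had FPKM values of 6.55, 6.47 and 8.14 in the PR3_KO libraries 1, 2 and 3, and of 13.7, 13.82 and 15.35 in the WT libraries. The highest PR3_KO library was thus below the lowest WT library, and the means were 7.05 ± 0.942 against 14.3 ± 0.92 FPKM (SD, n = 3 per genotype). Its log2 fold change was -0.93 (SE 0.11, adjusted p = 0.000942) and -0.63 after scaling (adjusted p = 0.00557). The gene lies at chr3:89454541-89469014 on the plus strand of GRCm38.p6.

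The kinase and the decarboxylase on either side of the Pmvk step did not follow it. Mevalonate kinase, Mvk, which acts just before it, was at 7.46, 6.28 and 6.67 FPKM in PR3_KO and 6.1, 8.17 and 6.92 in WT, and the groups overlapped (log2 fold change -0.04, 0.25 after scaling, not called on either). Mvd, the decarboxylase that acts just after, was at 30.55, 27.26 and 27.59 FPKM in PR3_KO and 25.05, 14.82 and 22.49 in WT. All PR3_KO libraries were above all WT libraries, with WT 2 lowest. The log2 fold change of 0.47 (SE 0.18) did not pass (adjusted p = 0.0583), but passed after scaling (0.78, adjusted p = 0.0199) and without WT 1 (0.61, adjusted p = 0.0246). Without WT 2 it was 0.25 (adjusted p = 0.0781), and without WT 2 and PR3_KO 3 it was 0.27 (adjusted p = 0.124).

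Upstream of mevalonate, both enzymes that build HMG-CoA had a higher mean FPKM in PR3_KO, a difference that was small without WT 2 (log2 fold change 0.17 for Acat2 and 0.05 for Hmgcs1). Acat2, the cytosolic acetoacetyl-CoA thiolase, was at 48.5, 48.94 and 57.58 FPKM in PR3_KO and 46.69, 27.51 and 44.69 in WT. These groups did not overlap, though WT 1 was close to the PR3_KO libraries; the log2 fold change was 0.41 (SE 0.20, adjusted p = 0.115), and 0.73 after scaling (adjusted p = 0.0334). Without WT 2 and PR3_KO 3 it was 0.09 (adjusted p = 0.59). Its near copy Acat3 rose (log2 fold change 0.89, SE 0.28, adjusted p = 0.0316), and reads shared between these copies make both values uncertain. Hmgcs1, cytosolic HMG-CoA synthase and the most abundant of the 29 genes per length, was at 112.03, 121.63 and 147.45 FPKM in PR3_KO and 127.04, 60.01 and 117.38 in WT. The groups overlapped, since WT 1 lay above PR3_KO 1 and 2 while WT 2 was far below (log2 fold change 0.38, SE 0.28, adjusted p = 0.264; 0.71 after scaling, adjusted p = 0.0923). Its log2 fold change was 0.58 without WT 1 and -0.06 without WT 2 and PR3_KO 3.

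Of Idi1 and Fdps, which act last on the way to farnesyl diphosphate, Fdps passed the test. Idi1, isopentenyl diphosphate isomerase, ranged from 2.94 to 4.68 FPKM in PR3_KO and from 3.26 to 7.61 in WT, with the groups overlapping (log2 fold change -0.34, adjusted p = 0.289). Single WT libraries moved that value, to -0.08 without WT 1 and -0.59 without WT 3 (adjusted p = 0.0626), as did PR3_KO 1 (-0.20 without it). Fdps, farnesyl diphosphate synthase, was at 13.51, 16.8 and 18.0 FPKM in PR3_KO and 19.91, 23.05 and 22.13 in WT, fully apart. It fell as deposited (log2 fold change -0.42, SE 0.12, adjusted p = 0.0231) and not after scaling (-0.10, adjusted p = 0.463). The call was lost without PR3_KO 1 (-0.30, adjusted p = 0.0706) or WT 3 (-0.40, adjusted p = 0.063), and 26.7% of its exonic bases are shared with the gene Gm43738 on the same strand.

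Of the 11 genes from squalene to cholesterol, 3 rose and 3 fell as deposited (27.3% each), beside 11.7% and 41.1% of all tested genes. Their median log2 fold change was 0.02. After scaling 4 rose (36.4%) and 0 fell, beside 25.6% and 22.2% of all genes, with a median of 0.33. On that scale 5 were higher and 0 lower at an unadjusted limma p under 0.05. The 3 genes of this branch that rose as deposited were Nsdhl, Ebp and Tm7sf2. Nsdhl, which removes methyl groups from the sterol ring, was at 35.01, 38.89 and 48.15 FPKM in PR3_KO and 28.8, 23.43 and 31.15 in WT. The lowest PR3_KO library exceeded the highest WT library, and the log2 fold change was 0.53 (SE 0.15, adjusted p = 0.0194; 0.85 after scaling, adjusted p = 0.00656). Without PR3_KO 3, its highest library, the change was 0.41 (adjusted p = 0.0667), and without PR3_KO 3 and WT 2 it was 0.29 (adjusted p = 0.096).

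Ebp, the isomerase that moves the double bond of the sterol ring, was at 65.77, 61.88 and 73.47 FPKM in PR3_KO and 57.12, 41.02 and 46.81 in WT. These groups were also apart, with a log2 fold change of 0.47 (SE 0.14, adjusted p = 0.023; 0.80 after scaling, adjusted p = 0.00798). The call was lost without PR3_KO 1 (0.49, adjusted p = 0.058), PR3_KO 3 (0.41, adjusted p = 0.0845) or WT 3 (0.46, adjusted p = 0.0633). Without PR3_KO 3 and WT 2 together it was 0.30 (adjusted p = 0.114).

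Tm7sf2, a sterol reductase of the endoplasmic reticulum, was at 8.01, 9.36 and 9.31 FPKM in PR3_KO and 7.09, 5.54 and 6.22 in WT, again without overlap. It rose by 0.44 on the log2 scale (SE 0.12, adjusted p = 0.0151; 0.73 after scaling, adjusted p = 0.00359). The call was lost without PR3_KO 2 (0.41, adjusted p = 0.0535), PR3_KO 3 (0.41, adjusted p = 0.0559) or PR3_KO 3 and WT 2 (0.34, adjusted p = 0.0903). It shares 12.1% of its exonic bases with Vps51 on the same strand, a gene whose log2 fold change was -0.05 (adjusted p = 0.706; 0.26 after scaling, adjusted p = 0.0418).

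Lbr, the lamin B receptor, has the same reductase activity as Tm7sf2 and is not one of the 29 genes. It was at 6.03, 8.44 and 9.98 FPKM in PR3_KO and 11.12, 13.53 and 11.92 in WT, and fell (log2 fold change -0.55, SE 0.17, adjusted p = 0.0263; -0.25 after scaling, adjusted p = 0.199). The log2 ratio of Tm7sf2 to Lbr within a library, which no scaling between libraries moves by much, was 0.36, 0.13 and -0.09 in PR3_KO against -0.58, -1.15 and -0.84 in WT. The pair was chosen after its values were seen, so the difference of 0.99 is a description without a test.

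The 3 members of this branch that fell as deposited were Fdft1, Msmo1 and Dhcr7. Fdft1, squalene synthase, was at 8.27, 8.93 and 8.48 FPKM in PR3_KO and 9.55, 11.57 and 12.39 in WT (log2 fold change -0.34, SE 0.11, adjusted p = 0.0353). The groups were apart, but the call was lost after scaling (-0.04, adjusted p = 0.77) and without PR3_KO 1 (-0.32, adjusted p = 0.0981), PR3_KO 2 (-0.37, adjusted p = 0.0653), PR3_KO 3 (-0.34, adjusted p = 0.0929), WT 2 (-0.31, adjusted p = 0.0708), WT 3 (-0.27, adjusted p = 0.102) or WT 2 and PR3_KO 3 (-0.31, adjusted p = 0.129). It shares 18.3% of its exonic bases with Ctsb on the opposite strand, a cathepsin gene at 482.03 to 588.38 FPKM, and whether strand was used in counting is not given in the sources used here.

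Msmo1, the methyl oxidase that acts before Nsdhl, was at 12.33, 17.02 and 14.46 FPKM in PR3_KO and 18.97, 21.11 and 25.86 in WT. The groups did not overlap as deposited, and it fell (log2 fold change -0.56, SE 0.15, adjusted p = 0.0156), though not after scaling (-0.25, adjusted p = 0.201) or without PR3_KO 1 (-0.45, adjusted p = 0.0546). Dhcr7, which carries out a last reduction to cholesterol, was at 8.81, 8.38 and 8.27 FPKM in PR3_KO and 11.45, 10.03 and 11.18 in WT, also apart. It fell (log2 fold change -0.32, SE 0.09, adjusted p = 0.0218), but not after scaling (-0.02, adjusted p = 0.868) or without PR3_KO 2 (-0.32, adjusted p = 0.0683), PR3_KO 3 (-0.31, adjusted p = 0.0734), WT 1 (-0.29, adjusted p = 0.0627), WT 3 (-0.31, adjusted p = 0.0574) or WT 2 and PR3_KO 3 (-0.36, adjusted p = 0.0505). Fold changes of Fdft1, Msmo1 and Dhcr7 were below 0 on both scales, where those of Nsdhl, Ebp and Tm7sf2 were above 0. After scaling, however, those of Fdft1 and Dhcr7 were small (-0.04 and -0.02), and Fdft1, Msmo1 and Dhcr7 were not called.

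The other 5 genes of the branch overlapped between genotypes as deposited. Sqle, squalene epoxidase, was at 9.8, 18.61 and 14.61 FPKM in PR3_KO and 16.96, 15.77 and 18.41 in WT, so PR3_KO held both its lowest and its highest value (log2 fold change -0.27; -0.04 without PR3_KO 1 and -0.47 without PR3_KO 2). Cyp51, the lanosterol demethylase, was at 19.66, 31.02 and 26.4 FPKM in PR3_KO and 34.97, 15.04 and 19.31 in WT, a spread over libraries larger than the difference of means (log2 fold change 0.21, SE 0.30; -0.04 without WT 2 and 0.54 without WT 1). Lss, lanosterol synthase, lay between 2.57 and 3.34 FPKM in all libraries, and Sc5d, a sterol desaturase, between 13.25 and 17.57. Hsd17b7, the keto reductase of the same complex as Nsdhl, was at 3.94, 3.62 and 4.35 FPKM in PR3_KO and 3.66, 3.39 and 4.02 in WT (log2 fold change 0.08, adjusted p = 0.557), and rose after scaling (0.34, adjusted p = 0.0462).

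**Figure D3:**
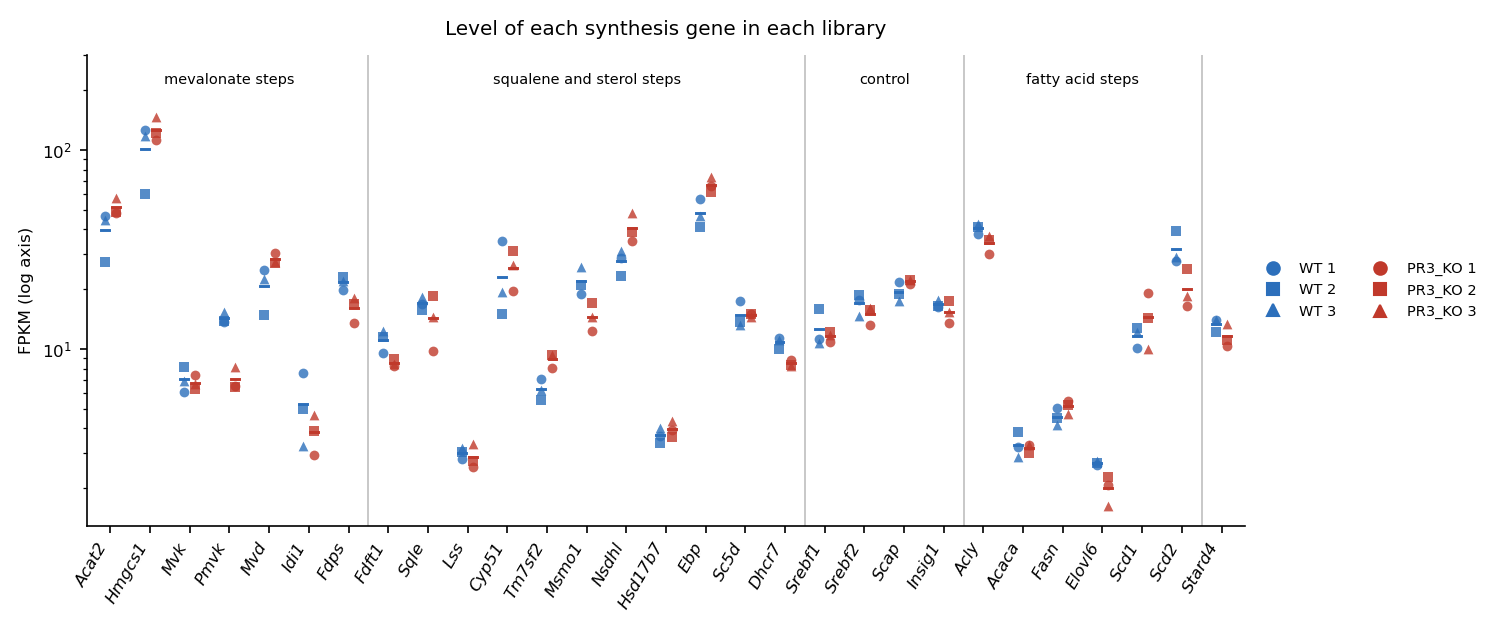
FPKM of each of the 29 genes in every library on a log axis, ordered by role, with PR3_KO in red, WT in blue, circles, squares and triangles for libraries 1, 2 and 3, and a short line at each group's mean. Pmvk shows the widest gap, 6.47 to 8.14 FPKM in PR3_KO against 13.7 to 15.35 in WT, and Hmgcs1 and Cyp51 show spread between WT libraries.

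None of the 4 control genes passed limma as deposited, where 11.7% of all tested genes rose and 41.1% fell. At an unadjusted limma p under 0.05, 0 passed, and their median log2 fold change was -0.11. Srebf2, the regulator tied mainly to sterol genes, was at 13.18, 15.69 and 16.07 FPKM in PR3_KO and 17.7, 18.83 and 14.75 in WT (log2 fold change -0.18, SE 0.12, adjusted p = 0.247). Srebf1, tied mainly to fatty acid genes, was at 10.9, 12.27 and 11.8 FPKM in PR3_KO and 11.2, 15.87 and 10.81 in WT (-0.09, SE 0.15, adjusted p = 0.624). Both pairs of groups overlapped, and both fold changes were above 0 after scaling (0.13 and 0.22) without passing. The log2 ratio of Srebf1 to Srebf2 took values of -0.25, -0.33 and -0.42 in the knockout and -0.62, -0.23 and -0.42 in WT, a difference of 0.09 (exact two-sided permutation p = 0.6).

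Insig1, which holds the Scap complex in the endoplasmic reticulum, was at 13.48, 17.5 and 15.34 FPKM in PR3_KO and 16.39, 16.53 and 17.75 in WT, with PR3_KO 2 inside the WT range (log2 fold change -0.13, SE 0.11, adjusted p = 0.348). Scap was at 21.28, 22.28 and 22.41 FPKM in PR3_KO and 21.7, 18.95 and 17.45 in WT. Only WT 1 reached into the PR3_KO range, and the log2 fold change of 0.18 (SE 0.10, adjusted p = 0.168) passed after scaling (0.49, adjusted p = 0.00852). Insig2, a related gene outside the 29, fell as deposited (log2 fold change -0.33, SE 0.10, adjusted p = 0.0206) and not after scaling (-0.02, adjusted p = 0.86), nor without PR3_KO 1 (-0.26, adjusted p = 0.0729) or WT 3 (-0.32, adjusted p = 0.0553).

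Of the 6 fatty acid genes, 1 fell (16.7%) and 0 rose as deposited, beside 41.1% and 11.7% of all tested genes. Their median log2 fold change was -0.14, and 2 were lower and 0 higher at an unadjusted limma p under 0.05. After scaling 1 rose (16.7%) and 0 fell, beside 25.6% and 22.2% of all genes, with a median of 0.15. Acly, which makes cytosolic acetyl-CoA from citrate, was at 30.08, 35.37 and 37.03 FPKM in PR3_KO and 38.02, 41.14 and 42.66 in WT, apart by a narrow gap (log2 fold change -0.25, SE 0.11, adjusted p = 0.0891; -0.16 without PR3_KO 1; 0.08 after scaling). Acaca, the acetyl-CoA carboxylase, ranged over 3.0 to 3.3 FPKM in PR3_KO and 2.87 to 3.83 in WT, with overlap. Fasn, fatty acid synthase, was at 5.51, 5.25 and 4.74 FPKM in PR3_KO and 5.08, 4.52 and 4.15 in WT, also overlapping (log2 fold change 0.14, SE 0.11, adjusted p = 0.303; 0.42 after scaling, adjusted p = 0.0188). Elovl6, which lengthens palmitate, was at 2.09, 2.28 and 1.64 FPKM in PR3_KO and 2.62, 2.67 and 2.76 in WT, apart but not called (log2 fold change -0.30, SE 0.13, adjusted p = 0.0742).

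The stearoyl-CoA desaturase paralogs Scd1 and Scd2, which make monounsaturated fatty acids, had fold changes of opposite sign on both scales. Scd2 was at 16.46, 25.45 and 18.5 FPKM in PR3_KO and 27.85, 39.39 and 28.97 in WT, with all PR3_KO libraries below all WT libraries. It fell (log2 fold change -0.65, SE 0.19, adjusted p = 0.0207), but not after scaling (-0.33, adjusted p = 0.115) or without PR3_KO 1 (-0.53, adjusted p = 0.0721), PR3_KO 3 (-0.61, adjusted p = 0.0665) or WT 2 and PR3_KO 3 (-0.45, adjusted p = 0.0897). With scaling and the replicate number as a block, Scd2 fell (-0.33, adjusted p = 0.0278), in a setting added after seeing the data. Scd1 was at 19.11, 14.29 and 10.06 FPKM in PR3_KO and 10.15, 12.77 and 12.24 in WT. PR3_KO held both the highest and the lowest library, and the log2 fold change of 0.25 (SE 0.21, adjusted p = 0.336) passed only without WT 2 and PR3_KO 3 (0.53, adjusted p = 0.0261). Without PR3_KO 1, its highest library, the change was 0.04 (adjusted p = 0.872), and without PR3_KO 3 it was 0.47 (adjusted p = 0.0546). The log2 ratio of Scd1 to Scd2 was 0.20, -0.79 and -0.82 in PR3_KO against -1.37, -1.55 and -1.18 in WT, so that every PR3_KO library was above every WT library. The difference of 0.90 reached p = 0.1 in an exact two-sided permutation test, the lowest possible with 3 libraries per genotype, and was 0.56 without PR3_KO 1, the library with the highest ratio. Reads shared between these paralogs may be split by the counting.

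**Figure D4:**
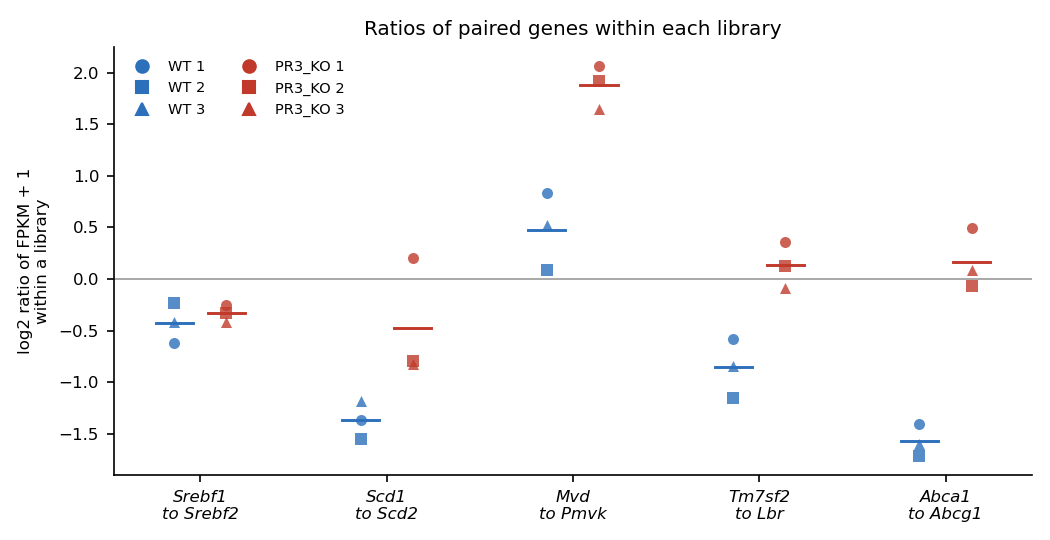
Log2 ratio of FPKM + 1 between pairs of genes within each library, with PR3_KO in red, WT in blue and circles, squares and triangles for libraries 1, 2 and 3. The Srebf1 to Srebf2 ratios overlap between genotypes, the Scd1 to Scd2 ratios are -0.82 to 0.20 in PR3_KO against -1.55 to -1.18 in WT, and the other pairs were chosen after their values were seen.

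Stard4, which carries cholesterol between membranes, was at 10.39, 11.13 and 13.34 FPKM in PR3_KO and 13.97, 12.17 and 14.11 in WT. PR3_KO 3 lay above WT 2, so the groups overlapped (log2 fold change -0.20, SE 0.12, adjusted p = 0.186; 0.11 after scaling). It passed only without WT 2 and PR3_KO 3 (-0.36, adjusted p = 0.0486).

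Libraries did not contribute evenly. PR3_KO 1 held the lowest value of 11 of the 29 genes and WT 2 of 8, while PR3_KO 3 and WT 3 each held the highest value of 7. Over all tested genes, PR3_KO 1 was lowest for 37.5% and WT 2 for 20.1%, and WT 2 was highest for 46.6%. Among the members WT 2 was the lowest library for genes such as Hmgcs1, Acat2, Mvd, Cyp51, Nsdhl, Tm7sf2 and Ebp, and the highest for Scd2, Srebf1, Srebf2 and Mvk. With each library left out in turn, between 0 and 4 members rose and between 2 and 5 fell, against 3 and 6 with all 6 libraries. The falling count was 2 without PR3_KO 1, 3 without PR3_KO 3 or WT 3 and 4 without PR3_KO 2. The rising count was 2 without PR3_KO 1, PR3_KO 2 or WT 3, and 0 came without PR3_KO 3, where 4 members were higher at an unadjusted limma p under 0.05. Calls over all tested genes dropped in these runs too. There 5091 fell with all libraries, and 3873, 4155, 4640 and 4464 without PR3_KO 1, PR3_KO 3, WT 3 and PR3_KO 2. Rising genes numbered 1454 with all libraries, and 916, 1098, 1230 and 936 without PR3_KO 1, PR3_KO 2, WT 3 and PR3_KO 3. Without WT 1 the rising counts were higher instead, at 1518 over all tested genes and 4 among the members.

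Around the 29 genes, 47 other genes of sterol and fatty acid handling were listed by function, with earlier results of these data known, of which 46 were in the files and 43 reached the filter. Of these, 16 rose, 14 fell and 13 were not called (9 fell without PR3_KO 1; 11 rose without PR3_KO 3). These were shares of 37.2% and 32.6%, beside 11.7% and 41.1% of all tested genes, with a median log2 fold change of 0.10. After scaling 24 rose and 8 fell (median 0.42, beside 0.03 over all tested genes). The scaled shares were 55.8% and 18.6%, beside 25.6% and 22.2% of all genes tested on that scale. The 16 that rose did so on both scales, while 6 of the 14 that fell did so only as deposited. The rising and falling genes described next kept their calls in every alternative that tested them.

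Genes that supply carbon and store fat were among those that rose. Acss2, which activates acetate to acetyl-CoA, was at 84.31, 78.75 and 92.41 FPKM in PR3_KO and 52.57, 32.52 and 42.03 in WT (log2 fold change 1.01, SE 0.17, adjusted p = 0.00258). Slc25a1, which exports citrate from mitochondria to feed Acly, was at 85.8, 83.13 and 87.19 FPKM against 53.7, 47.4 and 56.26 (0.70, SE 0.10, adjusted p = 0.0017). Lpin1, a phosphatidate phosphatase of triglyceride synthesis, was at 26.6, 20.31 and 22.86 FPKM against 12.23, 9.18 and 10.5 (1.06, SE 0.14, adjusted p = 0.00106). None of these groups overlapped. Acsl1, an acyl-CoA synthetase (0.92, adjusted p = 0.000942), Fads2, a fatty acid desaturase (1.12, adjusted p = 0.00268), and Lpcat3, which places unsaturated fatty acids in phospholipids (0.70, adjusted p = 0.0016), rose as well. Proximal tubule marker sums were higher in the same libraries, and their part in these values was not tested.

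Among those that fell, Abcg1, a cholesterol exporter, had 4.13, 5.11 and 4.41 FPKM in the PR3_KO libraries and 10.05, 15.79 and 10.63 in the WT libraries (log2 fold change -1.22, SE 0.17, adjusted p = 0.00131). Thrsp, a regulator of fat synthesis, was at 3.77, 3.37 and 2.82 FPKM against 6.82, 14.74 and 11.34 (-1.42, SE 0.24, adjusted p = 0.00272). For both genes every PR3_KO library was below every WT library. Elovl5 (-0.69, adjusted p = 0.00138), an elongase, and the acyl-CoA synthetases Acsl4 (-0.72, adjusted p = 0.00243) and Acsl5 (-0.88, adjusted p = 0.00243) fell too. Macrophage and endothelial marker sums were lower in the same libraries, and their part in these values was not tested.

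**Figure D5:**
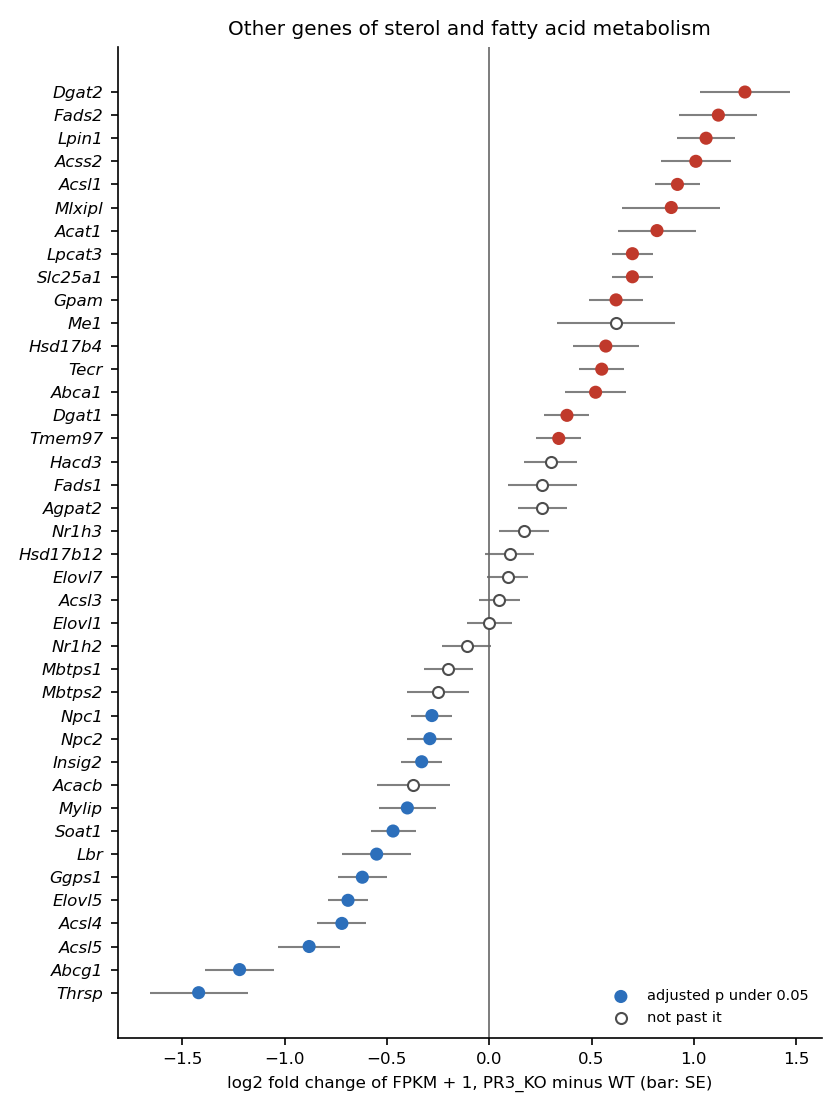
Log2 fold change of FPKM + 1 (PR3_KO minus WT, with its SE as a bar) of 40 of the 43 tested other pathway genes, ordered by value, with filled red points for genes that rose and filled blue points for genes that fell at limma's adjusted p of 0.05. The 15 rising and 12 falling genes among them span -1.42 for Thrsp to 1.25 for Dgat2.

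Some pairs of genes with adjacent or like roles differed in ratio between genotypes, given here as descriptions because these pairs were chosen after their values were seen. The log2 ratio of Mvd to Pmvk was 2.06, 1.92 and 1.65 in PR3_KO against 0.83, 0.09 and 0.52 in WT. For the cholesterol exporters, Abca1 to Abcg1 was 0.49, -0.07 and 0.09 in PR3_KO against -1.40, -1.71 and -1.60 in WT. In both pairs every PR3_KO library was above every WT library.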

How the data were processed

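RNA was measured in glomeruli of 3 PR3_KO and 3 WT libraries. Trizol extraction, selection of polyadenylated RNA with oligo(dT) and DNBSEQ sequencing are given per the labels' protocols. Bowtie2 and the build GRCm38.p6 are named per the submitters' processing notes; the tool that quantified genes, its annotation and its use of strand: not given in the sources used here. The authors deposited FPKM, per the file headers, with 2 decimals and without counts. FPKM is relative within a library, so a rise in abundant transcripts lowers all others.

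Each file listed 22064 Entrez gene IDs, of which 3242 were empty in all files. Of the remaining 18822, 18770 matched a symbol in a RefSeq gene table of GRCm38.p6 and 52 did not; all 29 members matched. The main test was limma 3.58.1 (statmod 1.5.0, R 4.3.3) on log2(FPKM + 1) of 12388 genes (mean of 1 FPKM or more), with a single term for genotype, trend and robust moderation, Benjamini-Hochberg adjustment over all tested genes and a threshold of 0.05. Every adjusted p printed is from limma. Ratios within a library, of FPKM + 1, and Prtn3 had an exact two-sided permutation test. Values were read with Python 3.11.15, pandas 2.3.3 and numpy 2.4.6, tested with scipy 1.17.1 and drawn with matplotlib 3.10.9. The fit was tested on simulated data. Exon overlaps came from GENCODE and promoter windows from RefSeq.

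The members and lists were chosen by pathway role with earlier results of these data known, so that they are no independent choice. All 29 members are named, with up to 6 other pathway genes per direction by smallest adjusted p, plus Insig2 and others fixed by name; some of these are not reported here. Lbr, Acat3, Abca1, Dgat2, Vps51, Ctsb and Gm43738 are named beside a member, a pair or an axis limit, after their values were seen. Alternatives were median-of-ratios scaling, a pseudocount of 0.1, no filter, a mean of at least 5 FPKM, no trend or robust moderation, the replicate number as a block, leaving out each library, and leaving out WT 2 and PR3_KO 3 together. Scaling with the block was added after seeing the data.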

Additional observations from a re-analysis of the deposited data

How the results depend on the processing

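Depth is unknown and each genotype has 3 libraries, which limits calls at these fold sizes. Pmvk kept its call in all 14 alternatives (leave-one-out log2 fold change -1.02 to -0.88, largest adjusted p = 0.00655). As deposited 3 members rose and 6 fell, 16 and 14 other pathway genes, and 1454 and 5091 of all tested genes. With median-of-ratios scaling 8 members rose and 1 fell, 8 other pathway genes fell, and over all genes 3158 rose and 2744 fell. With scaling and the replicate block 10 members rose and 2 fell, 8 other pathway genes fell, and over all genes 3256 rose and 2676 fell; Hmgcs1 (0.71, adjusted p = 0.0485) and Sc5d (0.33, adjusted p = 0.0413) were called there alone. Without WT 2 and PR3_KO 3 together 1 member rose. Leaving out 1 library gave 0 to 4 rising and 2 to 5 falling members, 11 to 16 rising and 9 to 13 falling other pathway genes, and 916 (without PR3_KO 1) to 1518 rising genes over all, with 936 without PR3_KO 3. Falling genes over all numbered 3873 (without PR3_KO 1) to 4731 (without WT 1). The cause of these shifts was not tested. The log2 ratio of Srebf1 to Srebf2 (difference 0.09) was -0.01 without WT 1, and that of Scd1 to Scd2 kept its direction, at 0.56 to 1.07 with 1 library left out; their exact p could not pass the threshold at any of these sizes.

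Fold changes that changed sign belonged to members called in neither the main nor the other setting. With scaling, alone or with the block, they were Mvk 0.25, Sqle 0.04, Lss 0.20, Srebf1 0.22, Srebf2 0.13, Insig1 0.18, Acly 0.08, Acaca 0.22 and Stard4 0.11. With 1 library left out, 6 members changed sign: Mvk ranged from -0.13 to 0.05, Lss from -0.13 to 0.01, Cyp51 from -0.04 to 0.54, Sc5d from -0.05 to 0.14, Srebf1 from -0.18 to 0.07 and Acaca from -0.11 to 0.05. Without WT 2 and PR3_KO 3 together they were Hmgcs1 -0.06, Mvk 0.07, Cyp51 -0.07, Sc5d -0.02, Hsd17b7 -0.02, Srebf1 0.07 and Acaca 0.03.

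Same-numbered deviations from the group means correlated at 0.068, 0.27 and -0.087, and PR3_KO 1 correlated best with WT 3 (0.322). Deviations from a mean of 3 libraries are tied to each other. These values therefore cannot decide whether replicate numbers pair the libraries. With the replicate block 4 members rose and 6 fell, Mvd being added (0.47, adjusted p = 0.0224), against 1550 and 5143 of all genes.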
